A study of Schizosaccharomyces pombe with 9 samples.

Results

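The suppressor strain STF9 of the fission yeast Schizosaccharomyces pombe was compared with its CTD-T4A parent by sequencing of poly(A)+ RNA, over 6 libraries. The parent carries the allele rpb1-CTD-T4A29, in which threonine 4 of the heptad repeats of the RNA polymerase II carboxy-terminal domain (CTD) is replaced by alanine, and it is called T4A below. Both strains were grown vegetatively in log phase at 30 °C in YES, a rich yeast extract medium, and each was sequenced as 3 libraries of the 9 in the series. STF9 is 1 strain, described by the submitters as a suppressor of the PHO hyper-repression that the Thr4 mutation causes. The labels of its libraries do not restate the CTD allele, and the gene mutated in STF9 is not given in the sources used here. Nothing in the labels says whether the 3 libraries of a strain came from separate cultures, so the p-values measure the spread between these libraries, which may be technical. Of 6986 genes in the count table, the 5904 with enough reads in these 6 libraries were compared.

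The PHO regulon of fission yeast serves the uptake of phosphate: pho1 encodes a cell surface acid phosphatase, pho84 a phosphate transporter and tgp1 a glycerophosphodiester transporter. In phosphate-rich medium each gene is repressed by transcription of a long non-coding RNA that starts upstream and runs across its promoter. Where that upstream transcript ends is set by the CTD of RNA polymerase II, by the cleavage and polyadenylation factors with their attached phosphatases, and by inositol pyrophosphates, signalling molecules made by the kinase Asp1. When the upstream transcript ends early, the promoter downstream is freed and the transcription factor Pho7 can drive the gene. The STF9 strain was isolated as a suppressor of repression at these genes, so their direction is part of how the strain was chosen and is not independent evidence.

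Library totals ran from 17704108 to 21910154 reads assigned to genes. Values are given below as CPM, counts scaled to library size, in the order of replicates 1, 2 and 3. A change is the log2 of STF9 over T4A with its standard error, and a gene is called higher or lower where the quasi-likelihood test of edgeR, adjusted by Benjamini-Hochberg over all 5904 genes, gave an adjusted p under 0.05. T4A replicate 2 stood apart. On the first principal component, which held 71.4% of the variance, it lay at −31.9, while T4A replicates 1 and 3 lay at −15.8 and −12.3 and the STF9 libraries between 16.99 and 23.2. Its scaling factor was 0.867, against 0.986 to 1.09 in the other 5 libraries. STF9 libraries were far more alike than T4A libraries, with a chi-square per gene of 3.22 to 9.82 between pairs against 24.6 to 92.1. That chi-square allowed for library totals but not for the scaling factors. Those ran from 0.867 to 1.09 in T4A and from 1.02 to 1.03 in STF9. The marker ura4 had no read in any of the 6 libraries, which allows up to 3 counts per library, and rpb1 itself was not called, at −0.17 ± 0.20.

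STF9 differed from T4A at 32.5% of the genes tested, mostly by small amounts. Of 5904 genes, 927 (15.7%) were higher and 992 (16.8%) were lower, and the median change over all genes was 0.032. At 994 of the 1919 called genes the change was under 1.5-fold, at 607 between 1.5-fold and 2-fold, and at 318 at least 2-fold: 132 higher (2.24%) and 186 lower (3.15%). At least 4-fold changes were seen at 47 genes, 22 higher and 25 lower. No overlap between STF9 and T4A libraries was seen at 3234 genes (54.8%). Genes named below for their fold change or shift in CPM were taken only from these. The lack of overlap at such genes was thus fixed by that choice and is not further evidence. Leaving out 1 library at a time moved the number of higher genes from 367 without STF9 replicate 3 to 1512 without T4A replicate 2, and of lower genes from 407 without STF9 replicate 3 to 1268 without T4A replicate 3. All 6 of these fits kept 696 of the 1919 calls (36.3%), and 254 of the 318 calls of at least 2-fold (79.9%). In the authors' deposited table for the same strains, 924 of the 927 higher genes and 989 of the 992 lower genes were called in the same direction. Among genes not called here, that table called a further 581 higher and 702 lower. It comes from the same series, so it is not independent evidence.

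**Figure D1:**
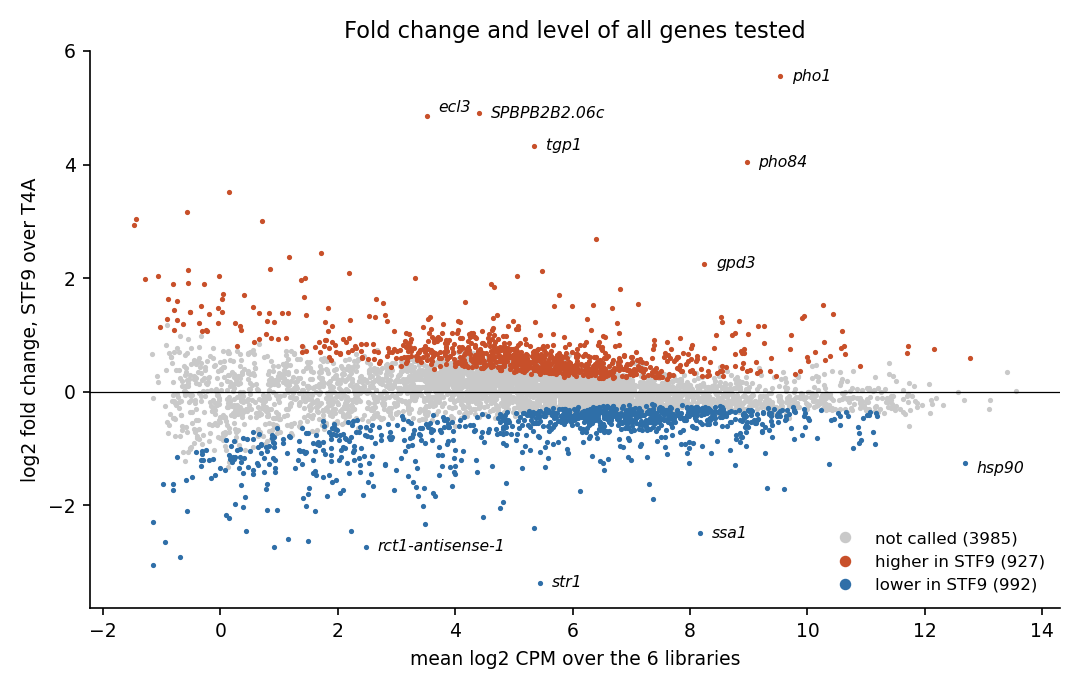
Log2 fold change of STF9 over T4A (vertical axis) against mean log2 CPM of the 6 libraries (horizontal axis) for the 5904 genes tested, coloured by call. Genes pho1, SPBPB2B2.06c, ecl3, tgp1 and pho84 have the largest positive changes among genes whose mean log2 CPM was 1 or more, and most of the 1919 called genes lie within 2-fold.

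Direction differed by gene class and abundance. Among 4947 protein-coding and other genes 872 were higher and 762 lower, whereas among 577 antisense RNAs 22 were higher and 157 lower (27.2%). With the genes divided by abundance into 4 equal bins of 1476, 162 were higher and 406 lower in the most abundant bin, and 312 were higher and 111 lower in the bin next to the least abundant. The gene lists below were read from annotation and common knowledge, and were chosen with earlier results of these data known. Their counts describe these data and are not independent evidence. Each list's count is to be read against the 15.7% and 16.8% over all genes. Where a list had 3 or fewer members called in a direction, leaving out 1 library moved that count by at most 5.

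**Figure D2:**
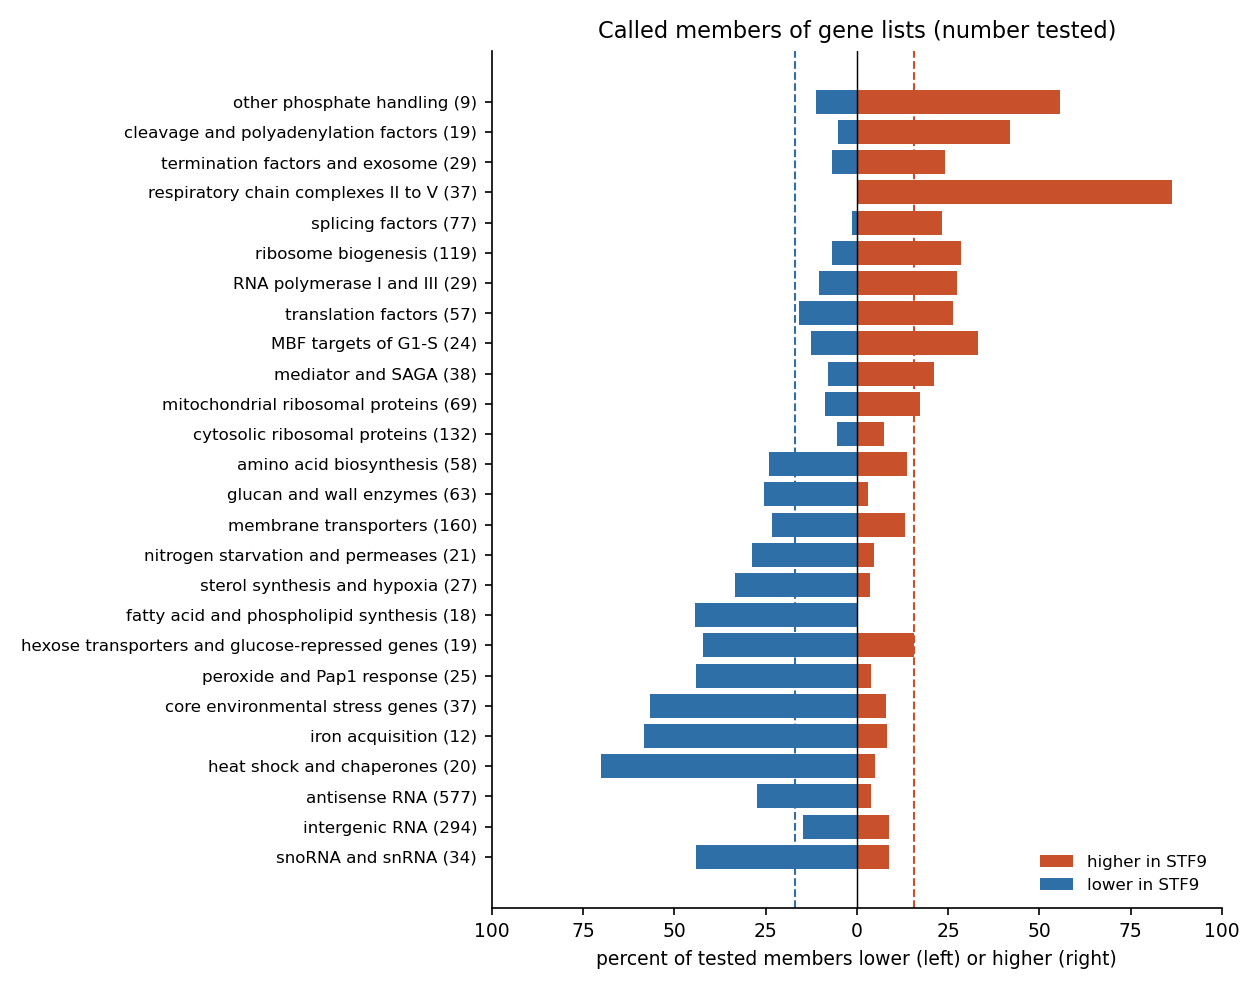
Percent of the genes tested in each of a selection of lists that were called higher (right bars) or lower (left bars) in STF9, with the number tested in brackets and dashed lines at 15.7% higher and 16.8% lower over all 5904 genes. The respiratory chain bar reaches farthest right and the heat shock bar farthest left of those drawn.

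Every gene of the PHO regulon was higher in STF9. The gene of the acid phosphatase, pho1, was at 105, 126 and 94.5 CPM in T4A and 5162, 5255 and 4910.4 CPM in STF9, a change of 5.56 ± 0.13, or 47.1-fold (adjusted p = 6.39e-08). Every STF9 library was far above every T4A library, and no other gene gained as many reads. The phosphate transporter gene pho84 was at 114, 137 and 119 CPM in T4A and 2123, 2045 and 1927 CPM in STF9, a change of 4.04 ± 0.11 (adjusted p = 6.39e-08). The transporter gene tgp1 was at 8.18, 12.3 and 7.08 CPM in T4A and 184, 192 and 173 CPM in STF9, a change of 4.33 ± 0.17 (adjusted p = 7.44e-07). Within each strain the libraries were close to each other at all 3 genes, T4A replicate 2 being the highest of the T4A libraries. All 3 calls held in each of the 6 fits that left out a library. Bulk RNA cannot tell a larger share of expressing cells from more RNA per cell.

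**Figure D3:**
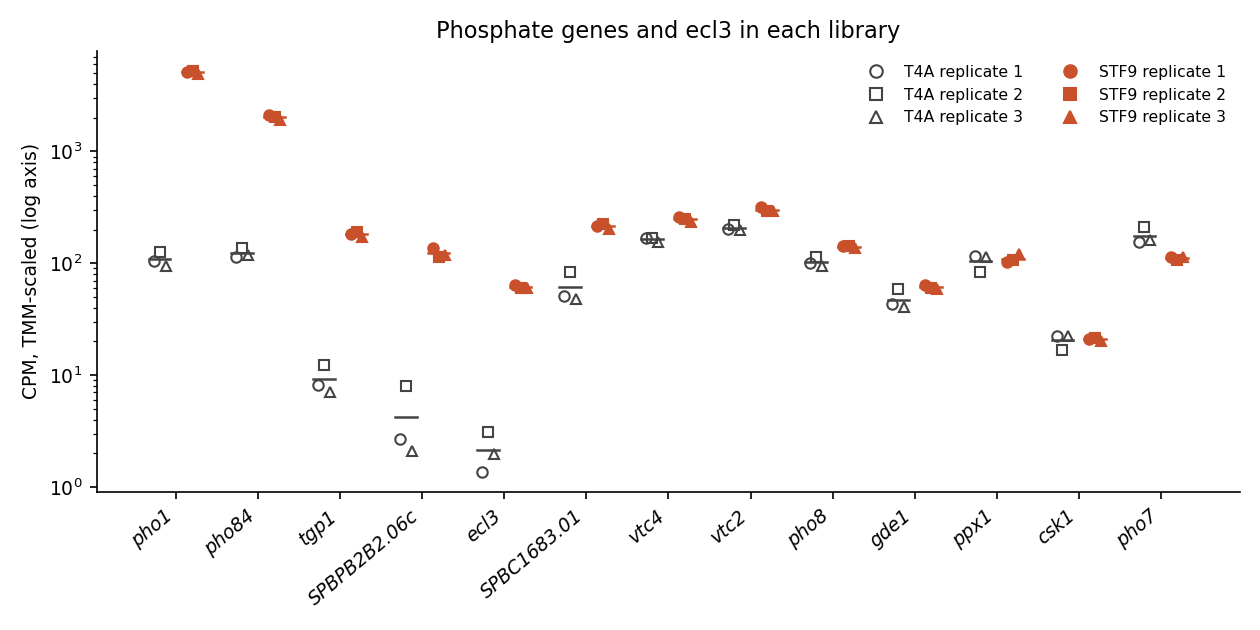
CPM on a log scale (vertical axis) of phosphate genes in each T4A and STF9 library, with the mean of each strain as a line. At pho1, pho84, tgp1, ecl3 and SPBPB2B2.06c every STF9 library lies far above every T4A library, while pho7 is lower in STF9.

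Some genes near pho84 and pho1 rose too, while other neighbours of the regulon did not. In the order of genes on chromosome II in RefSeq, the tested genes ecl3, pho84 and pho1 are consecutive, and all 3 rose, by 4.04 to 5.56. Gene ecl3, which encodes a small protein that extends chronological lifespan, was at 1.36, 3.07 and 1.97 CPM in T4A and 64.1, 60.1 and 59.8 CPM in STF9, a change of 4.86 ± 0.23 (adjusted p = 2.05e-06). All STF9 libraries were far above all T4A libraries. Beyond ecl3 the predicted agmatinase gene SPBC8E4.03 was not called, at 0.12 ± 0.10. The next coding gene, SPBC8E4.04, encoding a predicted alditol oxidoreductase, was at 49.4, 46.4 and 48.3 CPM in T4A and 141, 135 and 137 CPM in STF9, a change of 1.52 ± 0.08. RefSeq annotates SPNCRNA.1343 as a non-functional transcript that leaves the nc-tgp1 start region in the other direction, and this RNA fell, from 8.87, 7.62 and 10.1 CPM in T4A to 4.94, 4.59 and 5.22 CPM in STF9, a change of −0.86 ± 0.17. Its groups did not overlap. The flanking coding gene on the other side of tgp1, the predicted transporter gene SPBC1271.10c, was lower by 0.53 ± 0.10. The regulatory RNAs nc-tgp1, nc-pho1 (prt) and prt2, which RefSeq lists at these genes, were not analysed here.

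Among 9 other genes of phosphate handling 5 rose and 1 fell (median 0.45). SPBPB2B2.06c, which encodes a predicted extracellular nucleotidase, was at 2.68, 7.97 and 2.096 CPM in T4A and 137, 113 and 119 CPM in STF9, a change of 4.91 ± 0.36 that became 5.71 without T4A replicate 2. Its highest T4A library was T4A replicate 2, still far below the lowest STF9 library. SPBC1683.01, a predicted phosphate transporter gene, was at 50.5, 83.6 and 48.3 CPM in T4A and 213, 224 and 204 CPM in STF9, a change of 1.82 ± 0.18. The vacuolar polyphosphate polymerase subunits vtc4 and vtc2 rose by 0.60 ± 0.08 and 0.54 ± 0.08, and the vacuolar alkaline phosphatase gene pho8 by 0.45 ± 0.09. Pho7, the activator of the regulon, moved the other way: its gene was at 156, 212 and 160.2 CPM in T4A and 113, 107 and 114 CPM in STF9, a change of −0.65 ± 0.12 (adjusted p = 0.00412). Neither the CDK-activating kinase gene csk1, at 0.031 ± 0.15, nor the exopolyphosphatase gene ppx1, at 0.077 ± 0.13, nor the phosphodiesterase gene gde1, at 0.36 ± 0.14, was called.

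Of 6 genes of inositol pyrophosphate metabolism 4 rose and 1 fell. Gene asp1, whose product has a kinase domain that makes 1-pyrophosphates and a pyrophosphatase domain that removes them, was at 23.8, 21.0 and 22.6 CPM in T4A and 45.7, 47.4 and 51.6 CPM in STF9, a change of 1.10 ± 0.11 (adjusted p = 2.24e-04). The Nudix hydrolase gene aps1, which removes pyrophosphate groups, was at 82.2, 56.4 and 84.6 CPM in T4A and 116, 122 and 122 CPM in STF9, a change of 0.69 ± 0.14. At both genes the STF9 libraries lay above all T4A libraries, and T4A replicate 2 was the lowest. The phospholipase C gene plc1 changed by 0.63 ± 0.15 and the kinase gene kcs1 by 0.39 ± 0.08, while the kinase gene ipk1, whose product makes inositol hexakisphosphate, changed by −0.51 ± 0.13. These 3 calls were lost in some fits: kcs1 was called in 5, plc1 in 4 and ipk1 in 4 of the 6. Gene arg82 was not called, at 0.17 ± 0.17.

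Of 11 subunit genes of RNA polymerase II none was called by edgeR or DESeq2, 1 had an unadjusted p under 0.05, and 1 was called without T4A replicate 2. Of 20 genes for CTD kinases, phosphatases and their partners 6 rose and 2 fell. Gene pcm1, encoding the cap methyltransferase that binds the elongation kinase P-TEFb, was at 4.87, 3.13 and 3.90 CPM in T4A and 11.7, 10.8 and 12.6 CPM in STF9, a change of 1.55 ± 0.19. Lsg1, the gamma subunit of the CTD Ser2 kinase complex of Lsk1, had a transcript change of 0.90 ± 0.17, and the Ser5 phosphatase gene ssu72 one of 0.78 ± 0.15. The TFIIH-associated kinase gene mcs6 was at 186, 236 and 174 CPM in T4A and 109, 105 and 99.0 CPM in STF9, a change of −0.93 ± 0.11, and the phosphatase gene dis2 changed by −0.52 ± 0.11. The groups did not overlap at these 5 genes.

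Of 19 cleavage and polyadenylation factor genes 8 rose and 1 fell. The endonuclease family gene cft2 was at 17.2, 14.6 and 19.1 CPM in T4A and 33.7, 37.1 and 39.7 CPM in STF9, a change of 1.11 ± 0.14, and pfs2 at 14.4, 11.2 and 14.0 CPM in T4A and 25.5, 24.2 and 30.4 CPM in STF9, a change of 1.02 ± 0.15. The cleavage factor gene msi2 changed by 0.82 ± 0.09, the scaffold genes ppn1 and swd22, whose products hold the phosphatase module, by 0.62 ± 0.14 and 0.42 ± 0.08, and the poly(A) polymerase gene pla1 by 0.48 ± 0.11. Gene cft2 lies in a run of 3 consecutive tested genes that rose at least 2-fold, with the ribosomal lysine methyltransferase gene set10 (1.10 ± 0.14) and the peptide N-glycanase gene ngl1, at 1.46, 1.88 and 0.838 CPM in T4A and 7.23, 7.68 and 7.45 CPM in STF9, a change of 2.45 ± 0.26. Overlapping transcripts of neighbours could share reads, because how the counting treated strand is not given in the sources used here. Of 29 termination factor and exosome genes 7 rose and 2 fell: the CTD-binding factor gene rhn1 changed by 0.96 ± 0.15, the nuclear exosome gene rrp6 by 0.62 ± 0.18, called in 3 of the 6 fits without a library, and the helicase gene sen1 by −0.45 ± 0.08. The count of higher genes in that list ran from 1 without STF9 replicate 3 to 12 without T4A replicate 2.

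Chaperone genes, including those of the heat shock response, were lower in STF9: 14 of 20 fell and 1 rose, with a median change of −0.81. The Hsp70 gene ssa1 was at 655, 891 and 528 CPM in T4A and 135, 118 and 115 CPM in STF9, a change of −2.49 ± 0.17 (adjusted p = 3.26e-05). The disaggregase gene hsp104 was at 290.0, 298 and 246 CPM in T4A and 90.3, 92.8 and 88.6 CPM in STF9, a change of −1.62 ± 0.09. The small heat shock protein gene hsp16 was at 1208, 1062 and 1160.2 CPM in T4A and 402, 330.1 and 325 CPM in STF9, a change of −1.70 ± 0.11. The groups did not overlap at these genes, and T4A replicate 2 was the highest T4A library for ssa1 and hsp104 and the lowest for hsp16. Gene hsp90, encoding the major cytosolic chaperone, lost the most reads of any gene, from 9536, 13309.5 and 7912 CPM in T4A to 4473, 4300.4 and 4156 CPM in STF9 (−1.25 ± 0.19). The J-domain genes psi1 and mas5, partners of Hsp70, changed by −1.20 ± 0.17 and −0.82 ± 0.15, the endoplasmic reticulum Hsp70 gene bip1 by −0.92 ± 0.16, and the mitochondrial chaperonin gene mcp60 by −0.91 ± 0.16. Between ssa1 and its near copy ssa2, which was not called at −0.24 ± 0.23, reads may be split.

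The activator Hsf1 went the other way, its gene hsf1 being at 101, 80.2 and 93.7 CPM in T4A and 125, 126 and 142 CPM in STF9, a change of 0.52 ± 0.10. Mean log2 CPM over the list was 9.41, 9.57 and 9.24 in the T4A libraries and 8.68 to 8.72 in STF9. Every T4A library was thus above every STF9 library, with T4A replicate 2 the highest, and 12 to 15 members fell in the fits that left out a library. Of 8 genes of the chaperonin CCT none was called by edgeR or DESeq2, 3 had an unadjusted p under 0.05, and 5 were called higher without T4A replicate 2. Proteasome genes split, 3 of 45 higher and 9 lower, the number lower running from 3 without STF9 replicate 3 to 11 without T4A replicate 2 or T4A replicate 3: the cofactor gene txc1 changed by −0.96 ± 0.11, the lid deubiquitinase gene rpn11 by −0.60 ± 0.11, and the base ATPase gene rpt6 by 0.61 ± 0.12.

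**Figure D4:**
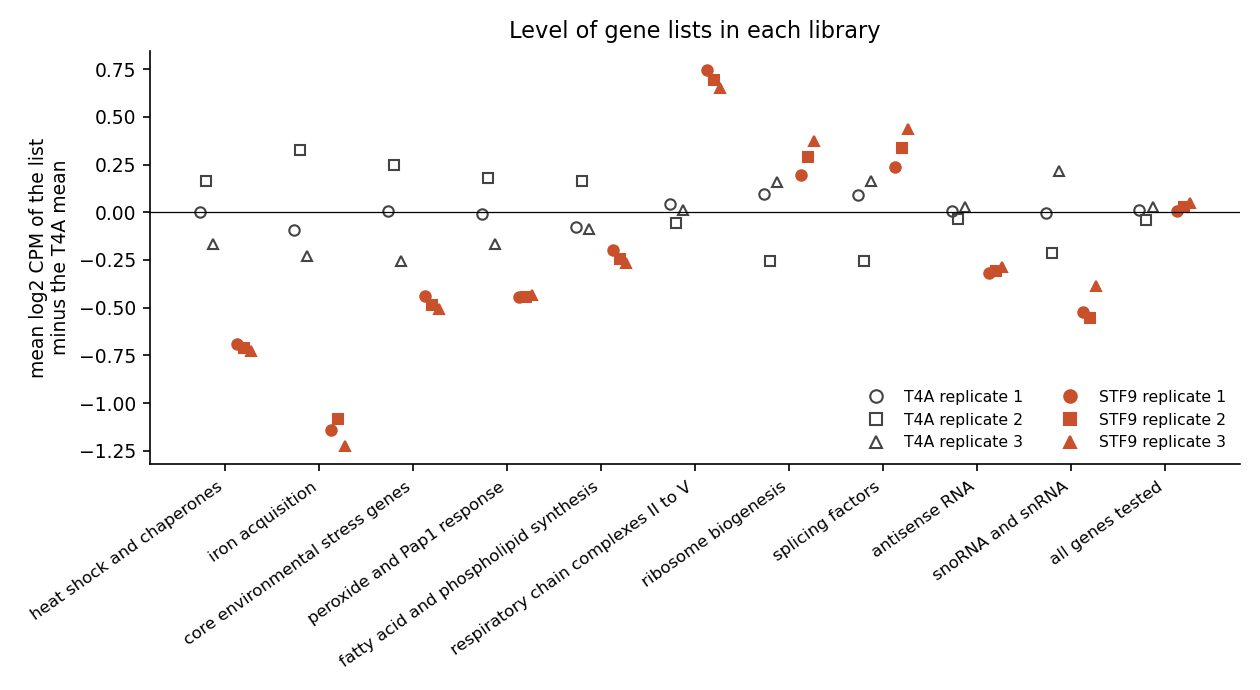
Mean log2 CPM of the members of each gene list minus the mean of the 3 T4A libraries (vertical axis), with 1 point for each T4A and STF9 library. Heat shock and iron genes are lower and respiratory chain genes higher in every STF9 library, with T4A replicate 2 at an end of the T4A points in most lists.

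Genes of iron acquisition fell: 7 of 12 were lower and 1 higher, with a median of −0.83. The siderophore transporter gene str1 was at 124, 197 and 109 CPM in T4A and 12.5, 17.4 and 11.96 CPM in STF9, a change of −3.36 ± 0.23 (adjusted p = 3.26e-05), the largest fall among genes whose mean log2 CPM was 1 or more. The ferric reductase gene frp1 was at 19.9, 34.6 and 21.1 CPM in T4A and 5.24, 5.19 and 4.56 CPM in STF9, a change of −2.33 ± 0.23. The iron oxidase gene fio1 and its partner permease gene fip1, which take up reduced iron together, changed by −2.06 ± 0.22 and −1.75 ± 0.19. T4A replicate 2 was the highest library at str1, frp1, fio1 and fip1, and the groups did not overlap. Genes str3, frp2 and php4 were lower too, php4 encoding the repressor of iron-using genes, which changed by −0.54 ± 0.09. The vacuolar iron importer gene pcl1 was the 1 member that rose, by 0.47 ± 0.08, and fep1, the iron-sensing repressor gene, was not called at −0.20 ± 0.10. The number lower stayed at 7 in the fits without a library, save 10 without T4A replicate 3. Among 12 copper and zinc genes 5 were lower and none higher by edgeR or DESeq2, 1 having risen at an unadjusted p under 0.05. The number lower ran from 1 without STF9 replicate 2 to 5 without T4A replicate 1 or T4A replicate 2 or T4A replicate 3 and the number higher reached 4 without T4A replicate 2, the zinc transporter gene zhf1 changing by −0.56 ± 0.11 and the metallothionein gene zym1 by −0.61 ± 0.14.

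Most called stress-response genes were lower too. Of 37 genes of the core environmental stress response, driven in this yeast by the MAP kinase Sty1 and the factor Atf1, 21 fell and 3 rose (median −0.46). The SBDS-family gene rtc3 was at 155, 152 and 116 CPM in T4A and 61.4, 59.6 and 56.5 CPM in STF9, a change of −1.26 ± 0.12. Against that direction, the ferritin-related gene rds1 was at 49.0, 36.0 and 28.8 CPM in T4A and 108, 112 and 103 CPM in STF9, a change of 1.51 ± 0.16, and the tspO homologue gene SPBC725.10 rose by 0.81 ± 0.11. Gene tms1, of hexitol metabolism, changed by 0.44 ± 0.15 but was called in 1 of the 6 fits without a library. The transcripts of atf1 and sty1 themselves fell by 0.54 ± 0.11 and 0.32 ± 0.10, sty1 being called in 3 of the 6 fits. Of 5 trehalose genes 4 were lower and none higher by edgeR or DESeq2, and 2 of them, tpp1 and tps2, lost their calls without T4A replicate 1 or any 1 STF9 library. Trehalose, which protects proteins against heat, is made by way of Tps1, whose gene was at 872, 1133 and 713 CPM in T4A and 455, 422 and 415 CPM in STF9, a change of −1.07 ± 0.15. Its paralogue gene tps3 changed by −1.25 ± 0.14.

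Of 25 genes of the peroxide response 11 fell and 1 rose. The sulfiredoxin gene srx1, whose product restores oxidised peroxiredoxin, was at 45.5, 61.5 and 37.4 CPM in T4A and 10.2, 11.3 and 9.73 CPM in STF9, a change of −2.21 ± 0.18. The polyamine transporter gene caf5 was at 275, 535 and 188 CPM in T4A and 93.8, 84.5 and 90.2 CPM in STF9, a change of −1.89 ± 0.30, and the glutathione transferase gene gst2 at 1249, 1875 and 1145 CPM in T4A and 458, 412 and 425 CPM in STF9, a change of −1.72 ± 0.17. T4A libraries varied widely at caf5, T4A replicate 2 being the highest, but all were above STF9. The gene of the peroxide-sensing factor pap1 changed by −0.44 ± 0.10. Mitochondrial superoxide dismutase was the exception, its gene sod2 rising by 0.52 ± 0.09. Mean log2 CPM of the stress list was 6.66, 6.91 and 6.40 in T4A and 6.15 to 6.22 in STF9, and that of the peroxide list 8.17, 8.36 and 8.01 in T4A and 7.74 to 7.75 in STF9. In both lists T4A replicate 2 was the farthest from STF9. Without it 22 stress genes and 12 peroxide genes were lower. The lowest counts came without STF9 replicate 3, with 14 stress genes and 5 peroxide genes lower.

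Some genes of S-adenosylmethionine use and of phosphatidylcholine synthesis were lower in STF9, sam1 and SPBC8D2.18c being named for the size of their shift in CPM. The S-adenosylmethionine synthetase gene sam1, source of the cell's methyl donor, was at 1711, 2593 and 1871 CPM in T4A and 877, 862 and 819 CPM in STF9, a change of −1.27 ± 0.15. The adenosylhomocysteinase gene SPBC8D2.18c, which clears the product of methyl transfer, was at 2319.5, 3213 and 2298 CPM in T4A and 1485, 1426 and 1418 CPM in STF9, a change of −0.85 ± 0.14. The groups did not overlap at either gene. Both methyltransferases that turn phosphatidylethanolamine into phosphatidylcholine were lower: cho1 was at 310.1, 426 and 349.8 CPM in T4A and 175, 166 and 169.9 CPM in STF9, a change of −1.09 ± 0.11, and cho2 changed by −0.80 ± 0.14. Phosphatidylserine synthase and decarboxylase genes, pps1 and psd2, changed by −0.64 ± 0.11 and −0.52 ± 0.09. In all, 8 of 18 fatty acid and phospholipid genes fell and none rose by edgeR, 2 having risen at an unadjusted p under 0.05 and 1 by DESeq2. Without T4A replicate 2, 4 genes of the list were called higher. The number lower ran from 5 without STF9 replicate 1 or STF9 replicate 2 or STF9 replicate 3 to 9 without T4A replicate 2 or T4A replicate 3.

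Of 27 genes of sterol synthesis and the low-oxygen response 9 fell and 1 rose. The sterol demethylase gene erg11 changed by −0.76 ± 0.15, the coproporphyrinogen oxidase gene hem13 of haem synthesis by −0.89 ± 0.17, and the membrane-tethered factor gene sre2 by −0.54 ± 0.11. The number lower ran from 4 without STF9 replicate 1 or STF9 replicate 2 or STF9 replicate 3 to 17 without T4A replicate 3. Of 63 glucan and wall enzyme genes 16 fell and 2 rose. The mannosyltransferase gene imt2 was at 22.1, 34.0 and 23.6 CPM in T4A and 10.6, 10.1 and 8.46 CPM in STF9, a change of −1.45 ± 0.19, the chitin synthase homologue gene chs2 changed by −0.98 ± 0.11, and the spore wall glucanosyltransferase gene gas4 by −1.07 ± 0.12. The number lower in the wall list ran from 7 without STF9 replicate 3 to 23 without T4A replicate 3, and the number higher from 0 without STF9 replicate 1 or STF9 replicate 2 or STF9 replicate 3 or T4A replicate 1 to 7 without T4A replicate 2.

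Respiratory chain genes were higher in STF9: 32 of 37 rose and none fell, by edgeR, by DESeq2 or at an unadjusted p under 0.05, with a median change of 0.68. All 9 nuclear-encoded subunit genes of complex III, the cytochrome bc1 complex, rose (median 0.99), as did all 8 of complex IV, cytochrome oxidase (median 0.79), and 13 of 14 of the ATP synthase (median 0.64). Subunit gene qcr8 of complex III was at 84.9, 71.7 and 86.8 CPM in T4A and 233, 235 and 245 CPM in STF9, a change of 1.55 ± 0.09 (adjusted p = 1.07e-05). The cytochrome c1 gene cyt1 was at 253, 241 and 244 CPM in T4A and 621, 566 and 529.5 CPM in STF9, a change of 1.22 ± 0.09, and cox4 of complex IV was at 169, 165 and 155 CPM in T4A and 329.8, 318 and 295 CPM in STF9, a change of 0.95 ± 0.08. STF9 libraries lay above T4A libraries at all 32 called genes, against no overlap at 54.8% of all genes tested. That separation largely follows from the calls and is not further evidence. Of the 3 genes of complex II, which also serves the tricarboxylic acid cycle, none was called by edgeR or DESeq2 or had an unadjusted p under 0.05, with sdh1 at −0.021 ± 0.12. Cytochrome c itself (cyc1) rose by 0.68 ± 0.10, and of the external NADH dehydrogenase genes nde2 rose by 1.02 ± 0.09 while nde1 was not called at 0.19 ± 0.11. The ATP synthase assembly gene atp10 was not called, at 0.23 ± 0.19. Mean log2 CPM over the list was 7.52, 7.42 and 7.49 in T4A and 8.13 to 8.23 in STF9, and 29 to 33 members rose in the fits that left out a library.

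Other mitochondrial genes did not move as 1 block. Of 69 mitochondrial ribosomal protein genes 12 rose and 6 fell, the number higher running from 3 without STF9 replicate 2 or STF9 replicate 3 to 19 without T4A replicate 2 and the number lower being 3 without STF9 replicate 1 or STF9 replicate 2, with mrp17 changing by −0.71 ± 0.12 and rml2 by 0.56 ± 0.10. The mitochondrial elongation factor gene mef1 was at 15.4, 15.5 and 17.0 CPM in T4A and 36.5, 38.9 and 41.8 CPM in STF9, a change of 1.29 ± 0.12. Of 19 genes of the tricarboxylic acid cycle 3 rose and 3 fell, the numbers running from 1 without STF9 replicate 3 to 6 without T4A replicate 2 for genes higher and from 0 without STF9 replicate 2 or STF9 replicate 3 to 4 without T4A replicate 3 for genes lower, the fumarase gene fum1 rising by 0.53 ± 0.12 and the oxoglutarate dehydrogenase gene kgd1 falling by 0.57 ± 0.14. The phosphatidylglycerol phosphate phosphatase gene gep4, which acts in cardiolipin synthesis, was at 2.00, 2.11 and 2.39 CPM in T4A and 8.50, 9.89 and 9.23 CPM in STF9, a change of 2.08 ± 0.17. The malate genes mae1 and mae2 were not in the mitochondrial lists and are not counted as mitochondrial here. The malate permease gene mae1 was at 586, 702 and 580.1 CPM in T4A and 1566, 1585 and 1560.3 CPM in STF9, a change of 1.33 ± 0.11. The malic enzyme gene mae2 was at 1038, 1286 and 872 CPM in T4A and 2299, 2236 and 2165 CPM in STF9, a change of 1.07 ± 0.14. Both genes separated the groups.

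Of 20 glycolysis and fermentation genes 5 rose and 2 fell, the numbers running from 1 without STF9 replicate 1 or STF9 replicate 2 or STF9 replicate 3 or T4A replicate 1 to 9 without T4A replicate 2 for genes higher and from 0 without STF9 replicate 3 to 7 without T4A replicate 3 for genes lower. Of the 5, gpd3 alone, a glyceraldehyde-3-phosphate dehydrogenase gene, kept its call in every fit without a library: it was at 127, 227 and 82.8 CPM in T4A and 763, 663 and 647 CPM in STF9, a change of 2.25 ± 0.28. The abundant genes adh1, tdh1, eno101 and pdc101 gained many reads but changed by 0.60 ± 0.17, 0.75 ± 0.22, 0.80 ± 0.23 and 0.68 ± 0.17, with T4A libraries as far apart as 3309.6, 5025 and 2481 CPM at tdh1. Each of these 4 was called in 2 of the 6 fits. Among 19 hexose transporter and glucose-repressed genes 3 rose and 8 fell. At least 2-fold changes were seen at 2 that rose, the largest by 1.33, and at 5 that fell. The high-affinity glucose transporter gene ght5 was at 597, 497 and 986 CPM in T4A and 272, 306 and 273 CPM in STF9, a change of −1.29 ± 0.21. The galactose pathway gene gal10 and the transporter gene ght1 changed by −1.85 ± 0.24 and −1.58 ± 0.24, and the transporter gene ght2 rose by 0.42 ± 0.08.

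Of 132 cytosolic ribosomal protein genes 10 were higher and 7 lower, and many are near-identical copies between which reads can be split. The number lower ran from 0 without STF9 replicate 1 or STF9 replicate 2 or STF9 replicate 3 to 61 without T4A replicate 3, and the number higher from 2 without STF9 replicate 2 to 23 without T4A replicate 2. Gene rps2, of the small subunit, was at 1186, 1554 and 890.2 CPM in T4A and 2081, 2124 and 2095 CPM in STF9, a change of 0.80 ± 0.18. Of 119 ribosome biogenesis genes 34 rose and 8 fell, with 9 higher under library size alone as the scaling and 2 lower without STF9 replicate 3. The box C/D methyltransferase gene fib1, encoding fibrillarin, was at 322, 317 and 277 CPM in T4A and 629, 618 and 632 CPM in STF9, a change of 1.04 ± 0.09. The 60S assembly gene tif6 and the recycling ATPase gene rli1 fell by 0.48 ± 0.10 and 0.59 ± 0.11. The number higher ran from 3 without STF9 replicate 3 to 55 without T4A replicate 2 or T4A replicate 3, so the list's count depends on single libraries. Mean log2 CPM over it was 6.03, 5.68 and 6.09 in T4A and 6.12 to 6.31 in STF9, T4A replicate 2 being the lowest and the other T4A libraries close to STF9. In RNA polymerase I and III genes, 8 of 29 rose and 3 fell, the number higher running from 2 without STF9 replicate 3 to 12 without T4A replicate 2, and the RNA polymerase I initiation factor gene rrn3 was at 191, 212 and 188 CPM in T4A and 105, 104 and 97.1 CPM in STF9, a change of −0.95 ± 0.08.

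Translation factor genes rose more often than they fell, 15 of 57 against 9, the number higher running from 6 without STF9 replicate 2 or STF9 replicate 3 to 24 without T4A replicate 2 and the number lower being 2 without STF9 replicate 3. Elongation factor EF-1 alpha is encoded by 3 near-identical genes, and all were higher: tef101 was at 585, 856 and 431 CPM in T4A and 1571, 1540.5 and 1492 CPM in STF9, a change of 1.30 ± 0.21, tef102 changed by 1.25 ± 0.17 and tef103 by 0.87 ± 0.20. Reads can be split among these copies. The initiation factor eIF4G gene tif471 changed by 0.57 ± 0.10. Of 34 aminoacyl-tRNA synthetase genes 7 rose and 5 fell, the glutaminyl gene qrs1 rising by 0.61 ± 0.08 and the phenylalanyl gene frs1 falling by 0.59 ± 0.10. Those counts ran from 2 without STF9 replicate 2 or STF9 replicate 3 or T4A replicate 1 to 11 without T4A replicate 2 for genes higher and from 1 without STF9 replicate 1 or STF9 replicate 2 or STF9 replicate 3 to 11 without T4A replicate 3 for genes lower.

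Amino acid biosynthesis genes were mixed, 8 of 58 higher and 14 lower, the number lower running from 3 without STF9 replicate 2 or STF9 replicate 3 to 25 without T4A replicate 3 and the number higher from 3 without STF9 replicate 2 to 16 without T4A replicate 2. Some sulphur pathway genes were among the lower ones, the homoserine acetyltransferase gene cys2 changing by −0.64 ± 0.10, met17 of homocysteine synthesis by −0.60 ± 0.11 and met1, whose product makes the sirohaem of sulphite reductase, by −0.66 ± 0.12. Of other sulphur genes met10 was lower, at −0.38, while sua1 and met8 were not called, at −0.13 and 0.19. Outside that list SPCC11E10.01, a predicted cystathionine beta-lyase gene, was at 33.7, 37.1 and 29.5 CPM in T4A and 217, 215 and 214 CPM in STF9, a change of 2.69 ± 0.10 (adjusted p = 3.36e-07), the largest rise among genes whose mean log2 CPM was 1 or more, outside phosphate handling and its neighbours. The histidine gene his4 rose by 0.82 ± 0.09 and the folate gene met11, encoding methylenetetrahydrofolate reductase, by 0.60 ± 0.11. Another folate gene, the cyclo-ligase gene SPBC1703.08c, was at 0.926, 0.797 and 1.09 CPM in T4A and 3.82, 4.81 and 6.08 CPM in STF9, a change of 2.36 ± 0.26. The groups did not overlap at cys2, met17, met1, SPCC11E10.01, his4, met11 or SPBC1703.08c.

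Of 21 nitrogen starvation and permease genes 6 fell and 1 rose. Without T4A replicate 2 the number higher was 6, and the number lower was 3 without STF9 replicate 1 or STF9 replicate 3. The gene that rose, isp4, encodes an oligopeptide transporter and was at 20.4, 23.8 and 19.7 CPM in T4A and 94.9, 96.6 and 85.7 CPM in STF9, a change of 2.12 ± 0.11. The oxygenase gene isp7 and the amino acid permease gene agp3 fell by 0.85 ± 0.13 and 0.67 ± 0.13. Uracil and nucleobase genes gave 2 higher and 3 lower of 10, the numbers running from 0 without STF9 replicate 1 or STF9 replicate 2 or STF9 replicate 3 to 5 without T4A replicate 3 for genes lower and from 1 without STF9 replicate 1 or STF9 replicate 2 or STF9 replicate 3 or T4A replicate 1 to 4 without T4A replicate 2 for genes higher. Across 160 membrane transporter genes 21 rose and 37 fell, the number lower running from 15 without STF9 replicate 3 to 44 without T4A replicate 3, and 37 being higher without T4A replicate 2. The proton pump gene pma2, with few reads, was at 0.244, 0.341 and 0.251 CPM in T4A and 3.67, 2.93 and 2.99 CPM in STF9, a change of 3.51 ± 0.33.

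Genes of mating and meiosis lay below the average of all genes tested in both strains. Mean log2 CPM over 25 mating and pheromone genes lay between 3.69 and 3.87 in the 6 libraries, against 5.12 to 5.21 over all genes. Over 14 meiotic genes whose RNA is removed in growing cells it lay between 1.30 and 1.88. Of the 25 mating and pheromone genes 4 rose and 2 fell, the number higher running from 1 without STF9 replicate 2 to 6 without T4A replicate 2, and the MADS-box factor gene map1 was at 1.12, 1.19 and 1.34 CPM in T4A and 3.56, 2.87 and 3.14 CPM in STF9, a change of 1.38 ± 0.21. The starvation regulator genes ste11 and mei2 were not called, at 0.35 ± 0.13 and 0.38 ± 0.24. Of 60 genes annotated to meiosis or sporulation 11 rose and 11 fell, the numbers running from 5 without STF9 replicate 3 to 16 without T4A replicate 2 for genes higher and from 6 without STF9 replicate 1 or STF9 replicate 3 to 14 without T4A replicate 2 for genes lower. At 1 CPM or more in every library 4 were higher and 10 lower of 47 tested. The meiotic septin gene spn5 was at 0.731, 0.398 and 1.30 CPM in T4A and 3.51, 3.59 and 4.26 CPM in STF9, a change of 2.16 ± 0.34, and the meiotic factor gene mei4 fell by 0.83 ± 0.16. Of the 14 genes under RNA removal mcp7 and mug45 rose, each called in 3 of the 6 fits without a library.

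Of 24 targets of the G1-S factor MBF 8 rose and 3 fell, the number higher running from 3 without STF9 replicate 2 or STF9 replicate 3 to 10 without T4A replicate 2. The polymerase alpha gene pol1 was at 26.5, 21.5 and 28.6 CPM in T4A and 43.3, 46.1 and 49.0 CPM in STF9, a change of 0.85 ± 0.13, the replication licensing gene cdc18 rose by 0.68 ± 0.15, and the ribonucleotide reductase gene cdc22 fell by 0.84 ± 0.18. Of 11 core histone genes htb1 and cnp1 rose, by 0.56 ± 0.12 and 0.60 ± 0.14, and 5 were higher without T4A replicate 2. The mitotic phosphatase gene cdc25 fell by 0.56 ± 0.10, and 4 of 20 septation and cell separation genes were lower against 1 higher, the glucosidase gene psu1 at 0.61 ± 0.09. Those counts ran from 1 without STF9 replicate 1 or STF9 replicate 2 or STF9 replicate 3 to 8 without T4A replicate 3 for genes lower and to 4 without T4A replicate 3 for genes higher. Autophagy genes gave 5 lower of 26, from 0 without STF9 replicate 3 to 7 without T4A replicate 2, and none higher by edgeR or DESeq2, led by atg13 at −0.57 ± 0.13. Among 11 cell surface glycoprotein genes 2 fell, SPAPB18E9.04c by 1.08 ± 0.13 and pfl4 by 0.51 ± 0.14, and pfl9 rose by 0.58 ± 0.16.

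Of 118 transcription factor genes 20 rose and 25 fell, the number higher running from 7 without STF9 replicate 2 to 34 without T4A replicate 2 and the number lower being 10 without STF9 replicate 3. The zinc cluster gene SPAC2H10.01 was at 19.9, 26.7 and 15.7 CPM in T4A and 53.7, 51.6 and 42.6 CPM in STF9, a change of 1.25 ± 0.19, while rsv2 and the carbon regulator gene rst2 fell by 0.92 ± 0.14 and 0.56 ± 0.08. Of 84 protein kinase genes 8 rose and 15 fell, the number lower running from 5 without STF9 replicate 3 to 20 without T4A replicate 3 and the number higher from 0 without STF9 replicate 2 to 23 without T4A replicate 2, with the cAMP-dependent kinase gene pka1 falling by 0.48 ± 0.10 and the S6 kinase gene sck2 by 0.52 ± 0.10. Of 144 ubiquitin ligase and deubiquitinase genes 15 rose and 31 fell, the number lower running from 9 without STF9 replicate 3 to 39 without T4A replicate 2 and the number higher from 2 without STF9 replicate 2 or STF9 replicate 3 to 32 without T4A replicate 2, with hul5 and rkr1, ligases of protein quality control, lower by 0.79 ± 0.12 and 0.79 ± 0.13 and the deubiquitinase family gene sdu1 higher by 1.31 ± 0.15. Mediator and SAGA genes gave 8 higher and 3 lower of 38, and chromatin genes 7 higher and 5 lower of 51, the number higher running from 1 without STF9 replicate 3 to 18 without T4A replicate 3 and the number lower from 0 without STF9 replicate 2 or STF9 replicate 3 to 9 without T4A replicate 3, including the Clr6 complex gene pst1 at 0.69 ± 0.10 and rik1 of heterochromatin at −0.40 ± 0.09. Of 77 splicing factor genes 18 rose and 1 fell, with sap145 of the U2 snRNP at 22.0, 17.3 and 24.2 CPM in T4A and 33.1, 36.0 and 38.7 CPM in STF9, a change of 0.76 ± 0.15. The splicing count ran from 6 without STF9 replicate 2 or STF9 replicate 3 to 32 without T4A replicate 2, and the mediator and SAGA count from 0 without STF9 replicate 3 to 13 without T4A replicate 2 or T4A replicate 3. Under library size alone as the scaling 11 splicing genes and 1 mediator or SAGA gene were higher. T4A replicate 2 was the lowest library in mean log2 CPM over the splicing list, at 4.37, while T4A replicates 1 and 3 were at 4.71 and 4.79 and STF9 libraries at 4.86 to 5.06.

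Antisense RNAs were more often lower than higher: 157 of 577 fell and 22 rose (median −0.27). The number lower ran from 91 without STF9 replicate 3 to 194 without T4A replicate 2, and 8 were higher without STF9 replicate 2. Some antisense RNAs, rct1-antisense-1 among them, are marked in the annotation as a possible alternative untranslated region. Of 177 tested non-coding RNAs so marked 53 were lower and 9 higher, running from 33 to 61 and from 0 to 16 without 1 library. How many of the 157 are so marked was not counted. Antisense RNA of rct1 was at 13.1, 16.0 and 13.2 CPM in T4A and 1.78, 2.21 and 2.33 CPM in STF9, a change of −2.74 ± 0.18 for rct1-antisense-1. The more abundant SPCC1919.05-antisense-1 was at 89.9, 117 and 76.6 CPM in T4A and 19.3, 16.6 and 17.4 CPM in STF9, a change of −2.41 ± 0.15. Some rose, pof9-antisense-1 being at 10.7, 14.3 and 13.1 CPM in T4A and 46.6, 48.4 and 46.6 CPM in STF9, a change of 1.89 ± 0.13. At 491 antisense RNAs the gene on the other strand was tested too, and 118 of these genes (24.0%) were higher. Where the antisense RNA fell (138 pairs), 46 of the genes rose (33.3%) and 6 fell. Where it was not called (333 pairs), 68 of the genes rose (20.4%) and 33 fell. The difference between these shares was not tested. In the pair with the largest opposite changes SPAC1B3.04c-antisense-2 was at 4.87, 4.38 and 6.29 CPM in T4A and 0.713, 0.884 and 0.963 CPM in STF9, a change of −2.60 ± 0.25. Its gene guf1, encoding a mitochondrial translation GTPase, was at 0.731, 0.341 and 0.503 CPM in T4A and 4.12, 4.53 and 4.21 CPM in STF9, a change of 3.00 ± 0.28. As how strand was counted is not stated, reads of a gene and its antisense partner cannot be told apart with certainty.

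**Figure D5:**
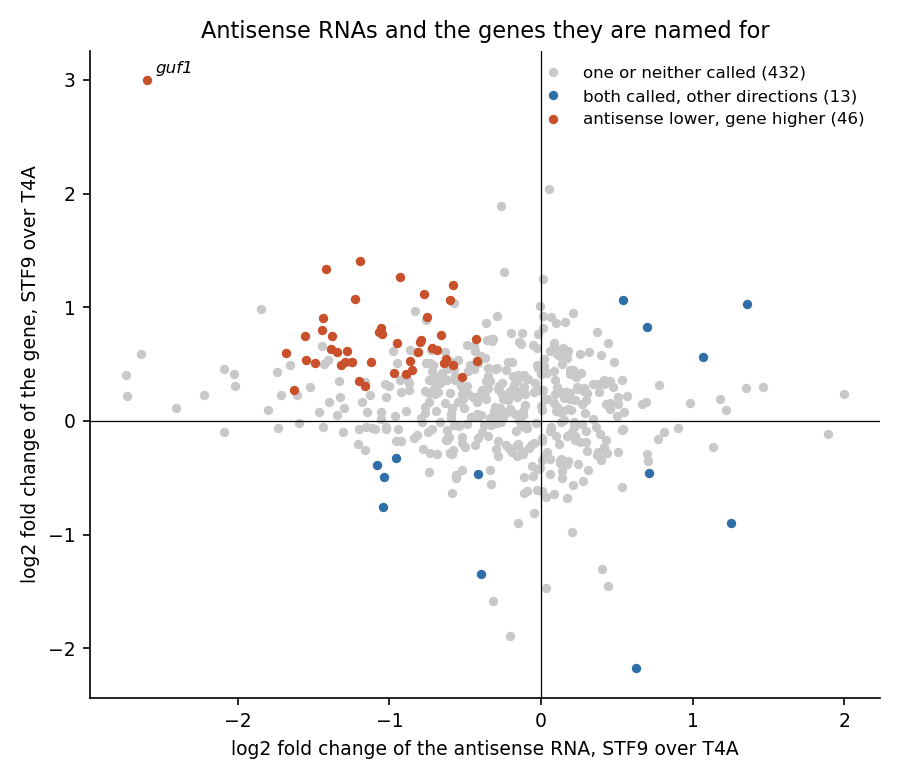
Log2 fold change of STF9 over T4A of the gene (vertical axis) against that of its antisense RNA (horizontal axis) for 491 pairs, with pairs in which both were called in colour, red where the antisense RNA was lower and the gene higher and blue for other directions. Of the 138 pairs whose antisense RNA was lower, 46 genes were higher and 6 lower.

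Of 294 intergenic RNAs 26 were higher and 43 lower, the number lower running from 23 without STF9 replicate 3 to 65 without T4A replicate 2 and the number higher being 14 without STF9 replicate 2. A run of 6 consecutive ones, SPNCRNA.779 to SPNCRNA.784 on chromosome I, rose by 1.43 to 2.94, SPNCRNA.784 losing its call without STF9 replicate 1, STF9 replicate 3 or T4A replicate 1, with SPNCRNA.783 at 1.32, 0.569 and 2.18 CPM in T4A and 4.79, 5.36 and 6.84 CPM in STF9, a change of 2.009 ± 0.36. Another run on chromosome II held SPNCRNA.1605, SPNCRNA.1606 and the neighbouring gene SPBPB7E8.01, specific to this genus, which was at 765, 1019.7 and 811 CPM in T4A and 2243, 2207 and 2260.5 CPM in STF9, a change of 1.37 ± 0.13. A run of 4 on chromosome I fell, with changes of −3.05 to −1.47: the gluconate transporter gene ght3, the siderophore transporter gene str3, SPNCRNA.604 and SPAC1F8.04c-antisense-1. Among 49 subtelomeric genes of chromosomes I and II 11 rose and 11 fell, the number higher running from 8 without STF9 replicate 3 to 20 without T4A replicate 2. This list shares genes with those above: its largest rise is that of pho1, and its largest fall, −3.05, lies in the run on chromosome I. Of 2 tested Tf2 retrotransposons none was called by edgeR or DESeq2 or had an unadjusted p under 0.05, and of 22 wtf spore killer genes 2 were lower.

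Among small structured RNAs, which poly(A)+ libraries catch only in part, classes differed. Of 34 snoRNAs and snRNAs 15 fell, 3 rose and 16 were not called (median −0.62), and of 17 box H/ACA snoRNAs, guides of pseudouridylation, 10 fell and none rose by edgeR or DESeq2. Without STF9 replicate 2 or STF9 replicate 3 the number of snoRNAs and snRNAs lower was 9. The U3 genes snu3 and snu32, near-identical copies that guide cleavage of pre-rRNA, were at 22.0, 14.2 and 24.1 and 26.5, 16.7 and 25.2 CPM in T4A and 6.31, 6.35 and 5.93 and 7.23, 6.13 and 6.54 CPM in STF9, changes of −1.70 ± 0.20 and −1.78 ± 0.19. The box H/ACA RNA snR94 was at 16.1, 15.4 and 16.8 CPM in T4A and 6.77, 6.52 and 5.73 CPM in STF9, a change of −1.34 ± 0.14. Of 13 copies of 5S rRNA, among which reads can be split, 9 were lower and none higher by edgeR or DESeq2 (median −1.04). Of 5 tRNAs none was called by edgeR or DESeq2 or had an unadjusted p under 0.05.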

How the data were processed

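Poly(A)+ RNA for the 3 T4A and 3 STF9 libraries was prepared with a stranded kit after hot acid phenol extraction and sequenced as paired ends, per the labels' protocols. The tools named are HISAT2 2.1.0, SAMtools, HTSeq 0.10.0 and DESeq2, with build ASM294v2, per the submitters' processing notes; the annotation, the strand setting and the handling of multi-mapping reads are unstated there. The deposited table holds raw counts per gene, whole numbers with no normalization. The authors also deposited their comparison of the strains, with log2 fold changes, a standard error and a test statistic (scores), p-values and mean normalized counts, here a signal. Their calls are the only values used from it.

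Here counts were filtered with filterByExpr, scaled by TMM and tested with edgeR 4.0.16 (glmQLFit, glmQLFTest; R 4.3.3) on strain alone, with Benjamini-Hochberg adjustment and a threshold of 0.05. CPM are TMM-scaled and depend on transcript length; log2 CPM used a prior count of 2. One empty duplicate line of the count table was dropped. On simulated counts with 200 changed genes among 5876, edgeR recovered 62.7% of 1.5-fold, 95.5% of 2-fold and 100% of 4-fold changes, with 9 false calls. The simulation had no outlying library such as T4A replicate 2, and far fewer genes changed than were called in the data. These rates therefore cannot be carried over to the calls made here.

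Members and lists were chosen with earlier results of these data known, and no set test was made. Genes were named by a rule: called genes whose mean log2 CPM was 1 or more and whose groups did not overlap, the 12 largest changes and 8 largest CPM shifts each way, up to 4 members of each list by p, the 4 largest non-coding changes each way, and every phosphate, inositol pyrophosphate and strain marker gene. Further genes were named after their values were seen: SPNCRNA.1343, SPBC1271.10c, SPBC8E4.03, set10, dis2, ppn1, swd22, pla1, rrp6, psi1, mas5, ssa2, hsf1, str3, frp2, php4, pcl1, fep1, SPBC725.10, tms1, atf1, sty1, pap1, sdh1, cyc1, nde1, nde2, atp10, ght5, ght2, ght3, tef103, met17, met1, met10, sua1, met8, pma2, ste11, mei2, cdc22 and guf1. Gene order was taken from RefSeq annotation of ASM294v3, a different build, so no coordinates or sequences are given. Same-numbered replicates were checked for pairing. Alternatives were another scaling, filter, tool, threshold or sample set, a replicate block and leaving out each library.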

Additional observations from a re-analysis of the deposited data

How the results depend on the processing

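No named gene that was called changed sign under any alternative, whereas 5 that were not called did, among them csk1, ppx1 and rpb1. More genes were lower than higher, but the order turned with a filter of 1 CPM in every library, with all 9 libraries in the fit, with the replicate block and without T4A replicate 2 (1512 higher, 1205 lower). It also turned, narrowly, without STF9 replicate 1 (580 higher, 579 lower). The 927 higher and 992 lower genes became 895 and 1034 with RLE scaling, 668 and 877 with library size alone, 961 and 972 without a filter, 908 and 887 at 1 CPM or more in every library, 1040 and 1125 with DESeq2, and 1368 and 1265 with all 9 libraries in the fit. Library size alone kept 70.3% of the 1919 calls, and each of the other scaling, filter, tool and sample choices kept at least 91.4%. With a filter of 1 CPM in every library 86 genes were at least 2-fold higher and 120 lower, fewer low-count genes being tested. Testing against a 2-fold threshold with glmTreat left 25 higher and 33 lower genes. Leaving out 1 library gave 367 to 1512 higher and 407 to 1268 lower genes, and 107 to 178 at least 2-fold higher and 165 to 199 at least 2-fold lower. With the replicate block 1202 genes were higher and 1069 lower. Same-numbered libraries correlated at −0.33, −0.02 and 0.26 in their deviations from the group means, and libraries of unlike number at −0.38 to 0.41. With 3 libraries in each group and T4A replicate 2 standing apart, these values cannot decide whether same-numbered libraries were paired.

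Of 203 named genes that were called, 154 kept their call in all 6 fits without a library. The other 49 lost it in at least 1 of these fits, 41 without STF9 replicate 2 and 42 without STF9 replicate 3. Of the genes given in the text, pla1, htb1 and kcs1 lost their call without STF9 replicate 2, pap1, atg13 and ppn1 without STF9 replicate 3, and pfl9, plc1, kgd1, rik1 and pfl4 without either one of them. Those of zym1 and ipk1 were lost without STF9 replicate 1 or 2, of SPNCRNA.1605 without STF9 replicate 1 or 3, of sty1 without any 1 STF9 library, and of cnp1 without STF9 replicate 2 or T4A replicate 1. The calls of rrp6, mcp7 and mug45 were lost without STF9 replicate 2 or 3 or T4A replicate 1, and of SPNCRNA.784 without STF9 replicate 1 or 3 or T4A replicate 1. Those of adh1, tdh1, eno101, pdc101, tpp1 and tps2 were lost without T4A replicate 1 or any 1 STF9 library, and of tms1 in every fit but that without T4A replicate 2. The cause of these losses was not tested. Few reads limit genes under 1 CPM, such as guf1, pma2 and str3 in the strain where they are low. Intervals cover the spread between libraries of 1 strain each.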
